A study of Mus musculus with 8 samples.

Results

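Gfap, Vim, Slc1a2, Slc1a3, Glul, Gja1, Aldh1l1, Aldoc and S100b are 9 genes by which brain astrocytes are commonly recognised. They were taken by symbol from a table of 22430 genes, and all 9 were present and held enough reads to be tested. In the aged brain, 4 of them were higher (Gfap, Slc1a3, Gja1 and Glul), 1 was lower (Slc1a2) and 4 did not pass the test (Vim, Aldh1l1, Aldoc and S100b). Of all 9375 tested genes, 10.3% were called higher and 4.17% lower. The 4 higher calls were kept under all 20 alternative settings of the processing, and the call of Slc1a2 was kept under 11 and lost under 9. The changes were therefore unequal within the group. Gfap RNA was 3.84-fold higher at 24m, the RNA of the glutamate transporter Slc1a3 was 3.14-fold higher, and the RNA of its relative Slc1a2 was 0.66-fold of the young adult level.

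All 8 libraries came from male mice of the inbred strain C57Bl/6JRj, 4 of them young adults of 6 months (6m) and 4 aged animals of 24 months (24m), and the labels name no transgene or treatment. From each mouse, RNA of a whole brain hemisphere was sequenced by ONT (Oxford Nanopore), in which, by the direct RNA protocol of the methods, each RNA molecule passes through the pore from its poly(A) end. The files hold whole numbers of reads for each gene. Library totals ranged from 573152 to 1255424 counts and did not differ between the ages beyond their spread (mean 768576 at 6m and 890592 at 24m, two-sided exact permutation test, p = 0.54, n = 4 per age). Levels are given as CPM, that is, counts relative to the total of their library after TMM scaling, and 1 count was worth 0.77 to 1.81 CPM. Aged replicate 1 stood apart from the other aged libraries for several genes, among them the astrocyte genes Gjb6 and Cst3. Without it the member calls were again 4 higher and 1 lower, and values without it are given beside the members it bears on. Since a hemisphere holds many cell types, fewer cells of a type and less RNA per cell cannot be told apart here.

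Astrocytes are glial cells that surround synapses and blood vessels. They clear glutamate released by neurons with the membrane transporters encoded by Slc1a2 (GLT-1) and Slc1a3 (GLAST), convert it to glutamine with glutamine synthetase (Glul), and are joined to each other by gap junctions of connexin 43 (Gja1). Their cytoskeleton contains the intermediate filament proteins GFAP and vimentin, and a rise in GFAP is the classical sign of a reactive astrocyte. Aldh1l1 (a folate enzyme), Aldoc (the aldolase C of glycolysis) and S100b (a calcium-binding protein) are general astrocyte markers. Outside astrocytes, vimentin is also made by vascular, ependymal and immune cells, and Glul and S100b by oligodendrocytes.

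Because the transporter genes Slc1a2 and Slc1a3 descend from a common ancestor, it matters whether reads could be assigned to the right member. The most alike 60 bases within their coding exons are shown from the GRCm39 assembly, read along the coding strand, with capitals at the bases that differ. The pair shared 52 of 60 bases at chr2:102591451-102591510 (plus strand, exon 8 of Slc1a2) and chr15:8671710-8671769 (minus strand, exon 8 of Slc1a3):
Slc1a2: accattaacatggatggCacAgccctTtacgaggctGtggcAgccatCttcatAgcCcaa
Slc1a3: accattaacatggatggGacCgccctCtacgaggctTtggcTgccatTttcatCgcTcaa

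Even in this closest stretch, the partners differ at 8 bases. Reads that start at the poly(A) end need not reach this exon, and read accuracy was not examined. The comparison therefore does not test whether each read was assigned to the right member. No member had an annotated transcript of another gene that matched it at 95% identity or more over at least 50% of its length. The nearest was Gm8642, which matched Glul at 87.5% identity over 1148 nt. An annotated gene lies on the opposite strand across part of 6 members, all but Gfap, Aldoc and S100b. The strand setting of the counting is not given in the sources used here, so reads of such antisense genes cannot be told apart from those of these members. On the same strand, the lncRNA Gm45901 overlaps Aldh1l1 and the microRNA Mir8114 overlaps Glul, and strand would not separate their reads.

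Among the filament genes, Gfap (ENSMUSG00000020932, GRCm39 chromosome 11, 102778159 to 102791738, minus strand) stood at 60.3, 70.5, 41.1 and 74.1 CPM in young adult replicates 1 to 4 and at 267, 217, 284 and 179 CPM in aged replicates 1 to 4. All 4 aged libraries stood far above all 4 young adult ones. The log2 fold change (log2FC) was 1.94 ± 0.17 (SE), with a 95% interval of 3.02-fold to 4.87-fold and an adjusted p of 5.03e-08 (quasi-likelihood test of edgeR, adjusted by Benjamini-Hochberg over 9375 tested genes). By log2FC, Gfap ranked 59 among the tested genes.

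Vim (ENSMUSG00000026728, chromosome 2, 13578738 to 13587639, plus strand), its filament partner, stood at 70.2, 72.3, 51.0 and 56.5 CPM at 6m and at 74.7, 79.0, 89.6 and 87.4 CPM at 24m. Every aged library lay above every young adult one, but by little, since the lowest aged and the highest young adult library were close. Its log2FC was 0.42 ± 0.16 (SE) with an edgeR adjusted p of 0.052, and without aged replicate 1 it was 0.47 with an adjusted p of 0.023. With all libraries it passed neither the threshold of 0.05 on the adjusted p nor that of 0.58 on the absolute log2FC, both of which a gene had to pass to be called changed.

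**Figure D1:**
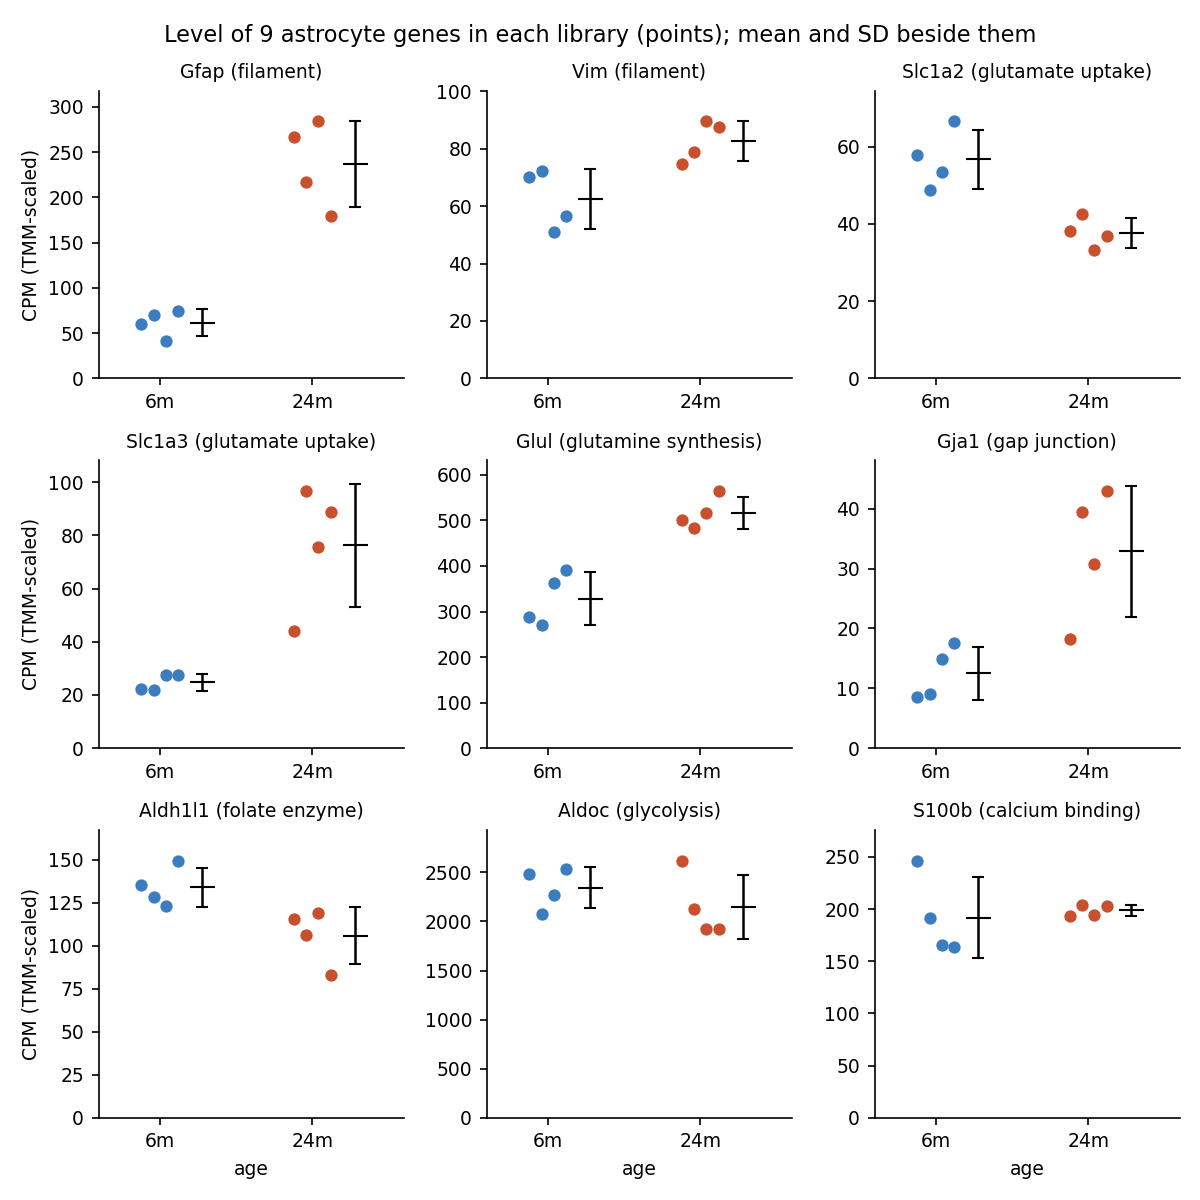
CPM (TMM-scaled, vertical axes from 0) of the 9 genes in the 4 libraries of each age, with the mean and SD beside the points. The ages are apart for 7 genes, with aged libraries above for Gfap, Vim, Slc1a3, Glul and Gja1 and below for Slc1a2 and Aldh1l1, and they overlap for Aldoc and S100b.

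The filament genes were compared with each other inside each library, which needs no scaling between libraries. There were 0.86, 0.98, 0.80 and 1.31 counts of Gfap for each count of Vim in young adult replicates 1 to 4, and 3.57, 2.75, 3.17 and 2.05 in aged replicates 1 to 4. Gfap and Vim thus had similar numbers of reads at 6m, and Gfap outnumbered Vim in each of the 4 aged libraries. The ratio was 2.90-fold higher at 24m (two-sided exact permutation test over the 70 assignments of libraries, p = 0.029, adjusted p = 0.034 over 6 ratios), where 0.029 is the smallest p that 4 against 4 libraries can give. Relative to Aldoc, the member with the most reads, Gfap was 4.22-fold higher at 24m (exact permutation test, p = 0.029, adjusted p = 0.034). Gfap stood at no more than 74.1 CPM at 6m and at no less than 179 CPM at 24m. That factor exceeds the whole range of Vim (51.0 to 89.6 CPM) and of Aldoc (1925 to 2617 CPM) over the 8 libraries. Both ratios therefore had to separate, and their tests add no support beyond the level of Gfap.

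The glutamate transporters moved in opposite directions. Slc1a2 (ENSMUSG00000005089, chromosome 2, 102488574 to 102621129, plus strand), which encodes the main glutamate transporter of the forebrain, stood at 57.9, 48.8, 53.5 and 66.6 CPM at 6m and at 38.1, 42.6, 33.3 and 36.8 CPM at 24m. Every aged library was below every young adult one, on 25 to 53 counts per library. The log2FC of -0.59 ± 0.17 (SE; adjusted p = 0.013, edgeR) was just past the threshold of 0.58, with a 95% interval of 0.52-fold to 0.84-fold. The call was not kept in every setting: with DESeq2 on raw counts the log2FC was -0.59 with an adjusted p of 0.071, without young adult replicate 4 it was -0.50 with an edgeR adjusted p of 0.065, and over all 20 alternatives it lay between -0.66 and -0.49 and the call was kept in 11.

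Slc1a3 (ENSMUSG00000005360, chromosome 15, 8663604 to 8741595, minus strand), the transporter of Bergmann glia and of radial glia-like cells as well as of astrocytes in general, stood at 22.2, 21.7, 27.4 and 27.6 CPM at 6m. In the aged libraries it stood at 44.2, 96.7, 75.5 and 89.0 CPM. All 4 aged libraries exceeded all young adult ones, and aged replicate 1 was clearly the lowest of them. The log2FC was 1.65 ± 0.21 (SE; adjusted p = 5.17e-06, edgeR), and without aged replicate 1 it was 1.82.

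Counted against each other within a library, there were 2.61, 2.25, 1.95 and 2.41 counts of Slc1a2 for each count of Slc1a3 at 6m, and 0.86, 0.44, 0.44 and 0.41 at 24m. The pair therefore changed order in read number: Slc1a2 had more reads in each of the 4 young adult libraries and Slc1a3 in each of the 4 aged libraries. The ratio at 24m was 0.23-fold of that at 6m, a log2 difference of -2.13 (exact permutation test, p = 0.029, adjusted p = 0.034). Leaving out each library in turn moved this difference between -2.38 and -2.02. Every aged library was below every young adult one in Slc1a2 and above in Slc1a3, so the ratios had to separate. The test of this ratio therefore adds no support beyond those levels.

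Glul (ENSMUSG00000026473, chromosome 1, 153775690 to 153785469, plus strand), the enzyme that turns the glutamate taken up into glutamine, stood at 288, 269, 362 and 392 CPM at 6m and at 501, 482, 516 and 565 CPM at 24m. The aged libraries were close to each other and all above the young adult ones. The log2FC was 0.65 ± 0.11 (SE), or 1.57-fold with a 95% interval of 1.35-fold to 1.83-fold (adjusted p = 0.00013, edgeR). Against Slc1a2, the change was opposite: the count of Slc1a2 per count of Glul went from 0.15 to 0.20 at 6m to 0.065 to 0.088 at 24m (exact permutation test, p = 0.029, adjusted p = 0.034). Here too the levels of both genes had already fixed that outcome. Teddm2, a protein-coding gene on the opposite strand, overlaps Glul.

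Gja1 (ENSMUSG00000050953, chromosome 10, 56253241 to 56278609, plus strand), the connexin of astrocyte gap junctions, was the member with the fewest reads, at 5 to 14 counts in young adult and 12 to 56 in aged libraries. Its level was 8.62, 9.04, 14.9 and 17.6 CPM at 6m and 18.3, 39.5, 30.7 and 43.0 CPM at 24m. The ages did not overlap, but aged replicate 1 was just above the highest young adult library. The log2FC was 1.42 ± 0.29 (SE; adjusted p = 0.0013, edgeR) and the 95% interval was wide, from 1.76-fold to 4.05-fold. Without aged replicate 1, which was also the lowest aged library for Slc1a3, the log2FC was 1.58.

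The 3 general markers did not pass the test. Aldh1l1 (ENSMUSG00000030088, chromosome 6, 90463409 to 90577185, plus strand) stood at 135, 128, 123 and 149 CPM at 6m and at 116, 106, 119 and 82.8 CPM at 24m. All aged libraries were below the young adult ones, and the log2FC was -0.36 ± 0.14 (SE; adjusted p = 0.062, edgeR). Without aged replicate 1 it was -0.41 with an edgeR adjusted p of 0.028, still short of the threshold on the log2FC. Aldoc (ENSMUSG00000017390, chromosome 11, 78213619 to 78218889, plus strand) stood at 2486, 2079, 2266 and 2532 CPM at 6m and at 2617, 2122, 1926 and 1925 CPM at 24m. Aged replicate 1 was the highest of all 8 libraries and the ages overlapped. Its log2FC was -0.13 with a 95% interval of -0.33 to 0.08 (adjusted p = 0.39, edgeR), and was 0.11 with DESeq2 on quantile-normalized counts and 0.08 with limma-voom on such counts. Without aged replicate 1 it was -0.23 with an edgeR adjusted p of 0.014, also short of that threshold. S100b (ENSMUSG00000033208, chromosome 10, 76085090 to 76097159, plus strand) stood at 246, 192, 166 and 163 CPM at 6m and at 194, 204, 195 and 203 CPM at 24m. The young adult libraries spread more widely than the aged ones and enclosed them, and the log2FC was 0.05 with a 95% interval of -0.20 to 0.31 (adjusted p = 0.80, edgeR). The ratio of Aldoc to S100b did not differ beyond its spread either (log2 difference -0.20, exact permutation test, p = 0.23), whereas Gja1 relative to Aldoc was 2.75-fold higher at 24m (exact permutation test, p = 0.029, adjusted p = 0.034). In that last ratio, aged replicate 1 (0.00699) barely exceeded the highest young adult library (0.00694), and leaving out any 1 of the 4 young adult libraries gave p = 0.057 in the same exact permutation test.

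**Figure D2:**
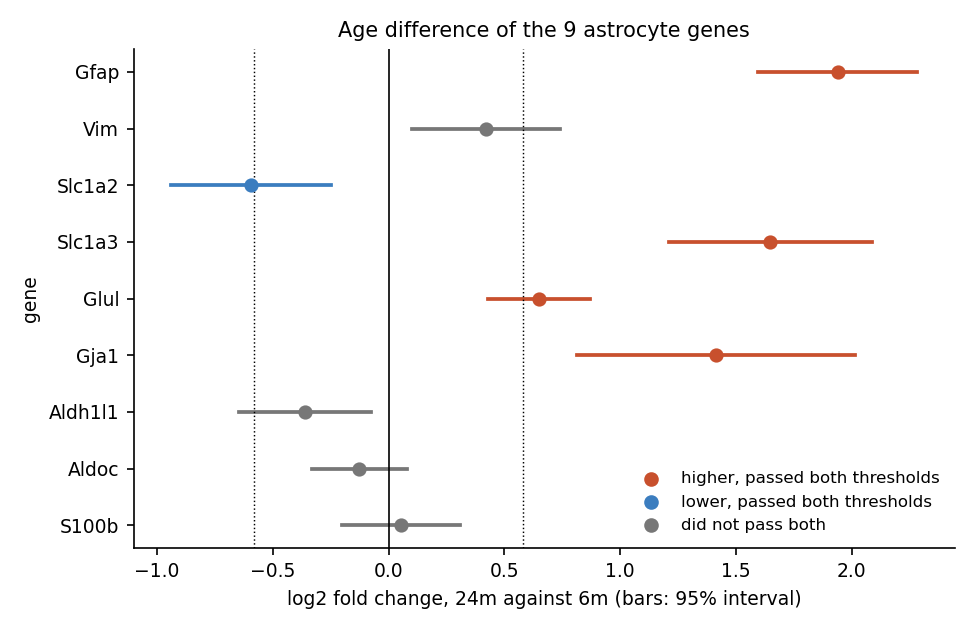
Log2 fold change at 24m against 6m (horizontal axis) of each of the 9 genes, with bars for the 95% interval and dotted lines at the threshold of 0.58. Gfap (1.94), Slc1a3 (1.65), Gja1 (1.42) and Glul (0.65) passed as higher, and Slc1a2 (-0.59) passed as lower with its point next to the threshold.

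Set against the whole table, 4 of 9 members were changed and higher where 10.3% of the 9375 tested genes were, and 1 of 9 was changed and lower where 4.17% were. The count of 1 lower member was 0 under 9 of the 20 alternatives. In 5 of 9 members every aged library lay above every young adult one, against 11.1% of tested genes, and in 2 of 9 every aged library lay below, against 9.96%. The median log2FC of the members was 0.42, and that of all tested genes was -0.003. The summed CPM of the members overlapped between the ages, at 2891 to 3478 at 6m and 3212 to 3870 at 24m, and most of it was Aldoc.

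**Figure D3:**
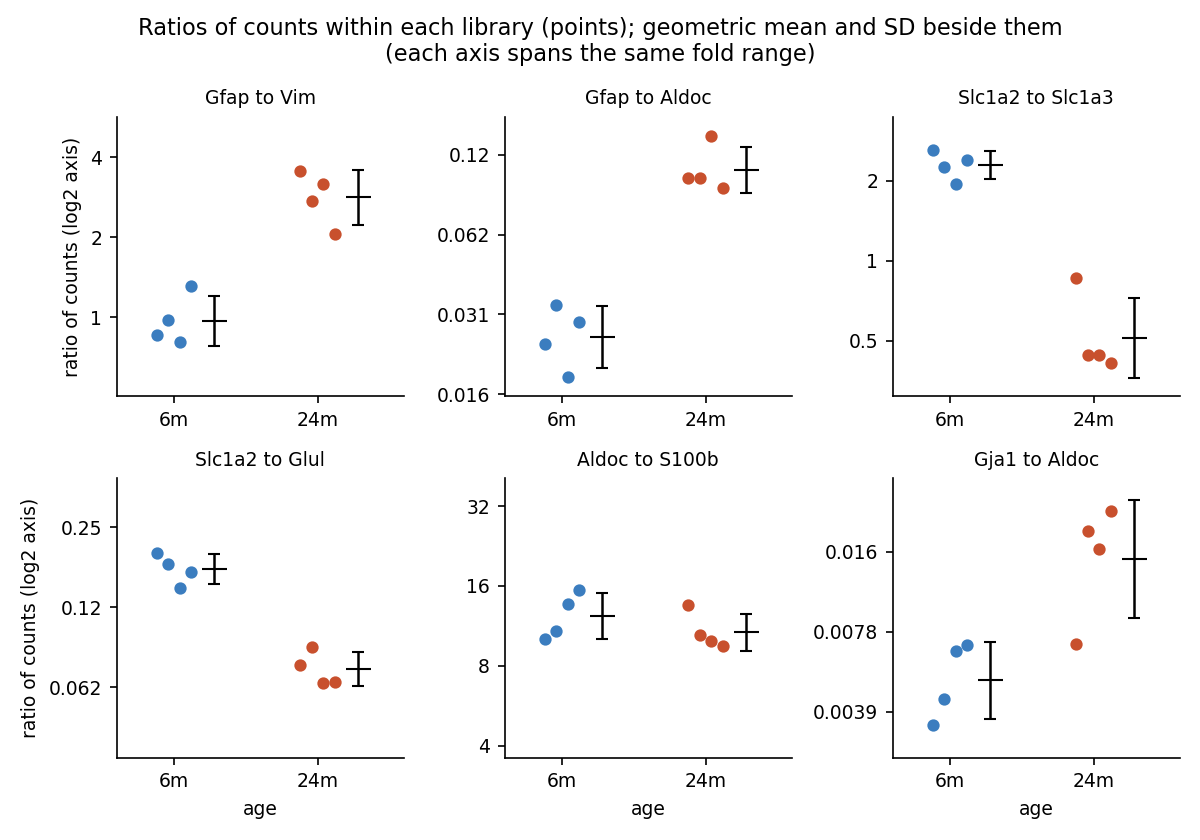
Ratios of counts of member pairs within each library by age (vertical log2 axes that all span the same fold range), with the geometric mean and SD of the log2 ratio beside the 4 points. The ages are apart in 5 ratios and overlap in Aldoc to S100b, and in Gja1 to Aldoc they are apart by aged replicate 1 at 0.00699 against 0.00694.

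CPM were also divided by the length of the main annotated transcript, which ranged from 1687 nt for S100b to 12025 nt for Slc1a2. On this scale of CPM per kb, the order at 6m was Aldoc (840), Glul (117), S100b (114), Aldh1l1 (31.9), Vim (28.5), Gfap (21.4), Slc1a3 (5.89), Slc1a2 (4.71) and Gja1 (2.67). Neighbouring levels whose library ranges overlapped were Glul and S100b, Aldh1l1 and Vim, Vim and Gfap, and Slc1a3 and Slc1a2. At 24m the order was Aldoc (771), Glul (185), S100b (118), Gfap (82.4), Vim (37.7), Aldh1l1 (25.2), Slc1a3 (18.2), Gja1 (6.99) and Slc1a2 (3.14). Here only Aldh1l1 and Slc1a3 overlapped among neighbours. On this scale, Gfap stood above Vim and Aldh1l1 at 24m and in or below their range at 6m, and Slc1a2 became the lowest of the 9. Reads of direct RNA sequencing start at the poly(A) end and need not grow in number with transcript length. Division by length may therefore place long transcripts too low, and the order does not rank the genes by RNA number. In plain CPM, Slc1a2 averaged 56.7 at 6m and 37.7 at 24m. That was above Gja1 at both ages (12.5 and 32.9) and above Slc1a3 at 6m (24.7).

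**Figure D4:**
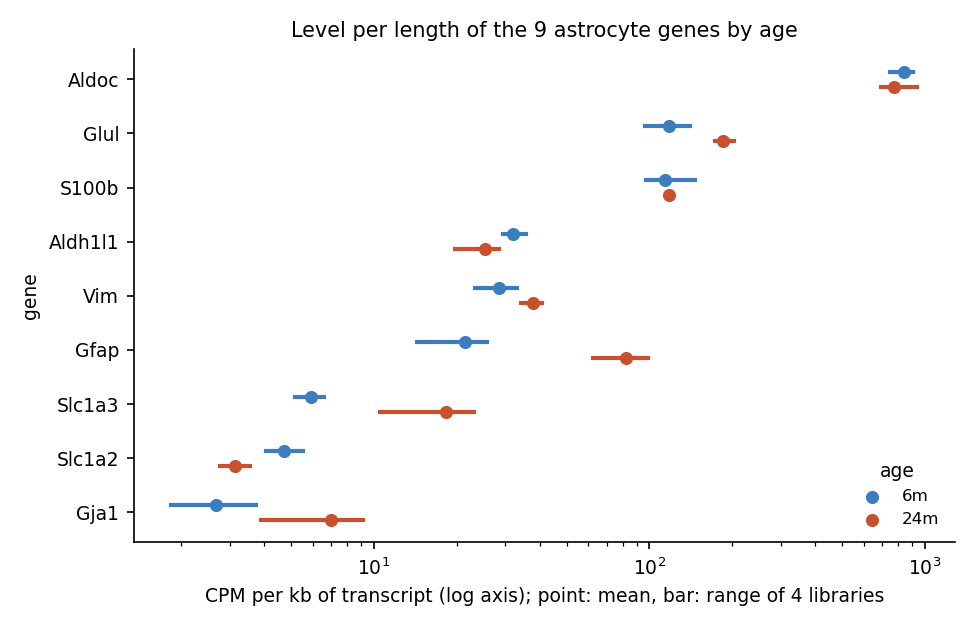
Level of each of the 9 genes in CPM per kb of transcript (horizontal log axis) at 6m and 24m, with points for the mean and bars for the range of 4 libraries. Gfap moved from 21.4 to 82.4 and Slc1a3 from 5.89 to 18.2, while Aldoc stayed the highest at both ages (840 and 771).

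Genes were also ranked by how closely their log2 CPM, centred on the gene's own mean, followed those of Gfap over the 8 libraries. Among 2725 genes with a mean count of at least 50, the nearest were Ppp1r9b (root mean square distance 0.32 on the log2 scale), Ywhag (0.32), Tspyl4 (0.36), Pip5k1c (0.36) and Camk2b (0.39). By the same measure, the nearest other members were Slc1a3 (0.56), Gja1 (0.69), Glul (0.73) and Vim (0.81). Slc1a3 and Gja1, with mean counts of 46.4 and 21.0, fell below that limit and were not among the ranked genes. The distance takes in the size of the age change. The 5 nearest genes had log2FC of 1.23 to 1.82, and Gfap had 1.94. The 8 libraries share their depth and scaling across genes, and the distance is a description without a test.

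The astrocyte label was checked with 36 other genes of these cells, of which 34 were tested. Cst3 (5353 ± 200 CPM at 6m and 4904 ± 529 at 24m, SD, n = 4) and Apoe (4101 ± 111 and 4242 ± 350), both secreted proteins, and Mt3 (3333 ± 155 and 2483 ± 385), a metallothionein, had the most reads. Of the 34, 6 were changed and higher and 2 changed and lower, beside 10.3% and 4.17% of all tested genes. Their median log2FC was 0.03. Those higher were Slc6a11 (log2FC 1.28, adjusted p = 0.0013, edgeR), a GABA transporter, Plpp3 (0.99), a lipid phosphatase, and Atp1b2 (0.93), a subunit of the sodium pump. Also higher were F3 (0.75, adjusted p = 0.049, edgeR), the coagulation factor receptor, Fgfr3 (0.65), a growth factor receptor, and Kcnj10. F3 had 8 to 43 counts per library, and its CPM overlapped between the ages. Kcnj10, the potassium channel Kir4.1, had 1, 0, 0 and 0 counts at 6m and 6, 9, 6 and 19 counts at 24m. Those lower were Slc4a4 (log2FC -1.22, adjusted p = 0.023, edgeR), a bicarbonate transporter, and Slc7a10 (-0.94), an amino acid transporter. Slc4a4 had 4 to 18 counts per library, and its CPM overlapped between the ages. Atp1b2, F3, Fgfr3 and Slc7a10 were named after their values were seen, as were the untested Aqp4, the water channel, with 7 counts at 6m and 23 at 24m in all, and Sox9, a transcription factor, with 16 and 17. The summed CPM of the 36 genes overlapped between the ages, at 23300 to 24506 at 6m and 20900 to 24240 at 24m.

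Of 38 genes associated with reactive astrocytes, besides Gfap and Vim, only 15 had enough reads to be tested. Among these, 4 were higher and none was lower by edgeR, beside 10.3% and 4.17% of all tested genes. Their median log2FC was 0.42. Serpina3n, a secreted protease inhibitor, had 6, 5, 8 and 21 counts at 6m and 22, 39, 50 and 51 at 24m (log2FC 1.70 ± 0.30 SE, adjusted p = 0.00029, edgeR). C4b, a complement component, rose from 57.3 ± 3.32 to 140 ± 12.9 CPM (SD, n = 4; log2FC 1.27, adjusted p = 1.06e-06, edgeR). Stat3, a transcription factor of cytokine signalling, had a log2FC of 1.37 and H2-D1, an MHC class I gene, of 0.64. C4b and H2-D1 are also expressed by microglia or other cells. The summed level of the list was 389 to 468 CPM at 6m and 585 to 697 CPM at 24m, without overlap. Most of this rise lay in C4b, H2-D1 (85.2 to 134 CPM on average) and Serpina3n (13.2 to 44.3). The sum therefore does not stand for the whole list.

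Of 10 binding partners and relatives of the filament proteins, 6 were tested and none passed both thresholds. Over all tested genes, 10.3% were called higher and 4.17% lower. The summed level of the 10 was 673 to 840 CPM at 6m and 595 to 651 CPM at 24m, without overlap. Most of it was Cryab, at 520 CPM on average at 6m and 419 at 24m. Cryab, a small heat shock protein that binds filaments, had a log2FC of -0.32 (adjusted p = 0.019, edgeR) and Dst, a filament linker, of -0.48 (adjusted p = 0.038, edgeR), and for both every aged library was below every young adult one. The connexins and their partners gave no call among the 7 tested of 13. Their summed level was 199 to 252 CPM at 6m and 255 to 274 CPM at 24m, narrowly without overlap. Gjb6, connexin 30, which astrocytes make beside connexin 43, averaged 47.5 ± 6.21 CPM in young adult and 59.4 ± 15.3 CPM in aged libraries (SD, n = 4), a log2FC of 0.36 ± 0.18 (SE; adjusted p = 0.16, edgeR). Aged replicate 1, at 36.6 CPM, was below every young adult library for Gjb6, and the other aged libraries (65.2 to 69.1 CPM) were above them all (39.8 to 54.2 CPM). Without it the log2FC was 0.51 with an edgeR adjusted p of 0.021, short of the threshold of 0.58. The relatives of S100b and Aldoc gave no call among the 8 tested of 12, with Aldoa at a log2FC of -0.08 and S100a1 at -0.06.

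In other steps of glutamate and glutamine handling, 5 of the 19 tested genes were changed and higher and none was lower by edgeR. Over all tested genes these shares were 10.3% and 4.17%. The summed level of the list was 2209 to 2392 CPM at 6m and 2655 to 2975 CPM at 24m, without overlap. This sum includes the neuronal Slc17a7, at 536 CPM on average at 6m and 806 at 24m. Slc38a2, a glutamine carrier, had a log2FC of 1.39 (adjusted p = 0.015, edgeR) on 2 to 17 counts per library, and Slc1a4, a neutral amino acid transporter of the same family as Slc1a2, of 0.90 (adjusted p = 0.048, edgeR). Slc1a4 had 4 to 31 counts per library, and its CPM overlapped between the ages. Got2, a mitochondrial aminotransferase, rose from 177 ± 20.3 to 277 ± 57.6 CPM (SD, n = 4; log2FC 0.64, adjusted p = 0.0013, edgeR). Gad1 (log2FC 0.75), which makes GABA from glutamate, and Slc17a7 (0.58), which loads glutamate into synaptic vesicles, are neuronal genes. Got1 and Slc25a22, other genes of glutamate metabolism with many reads, had log2FC of 0.27 and -0.05 and were not called.

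**Figure D5:**
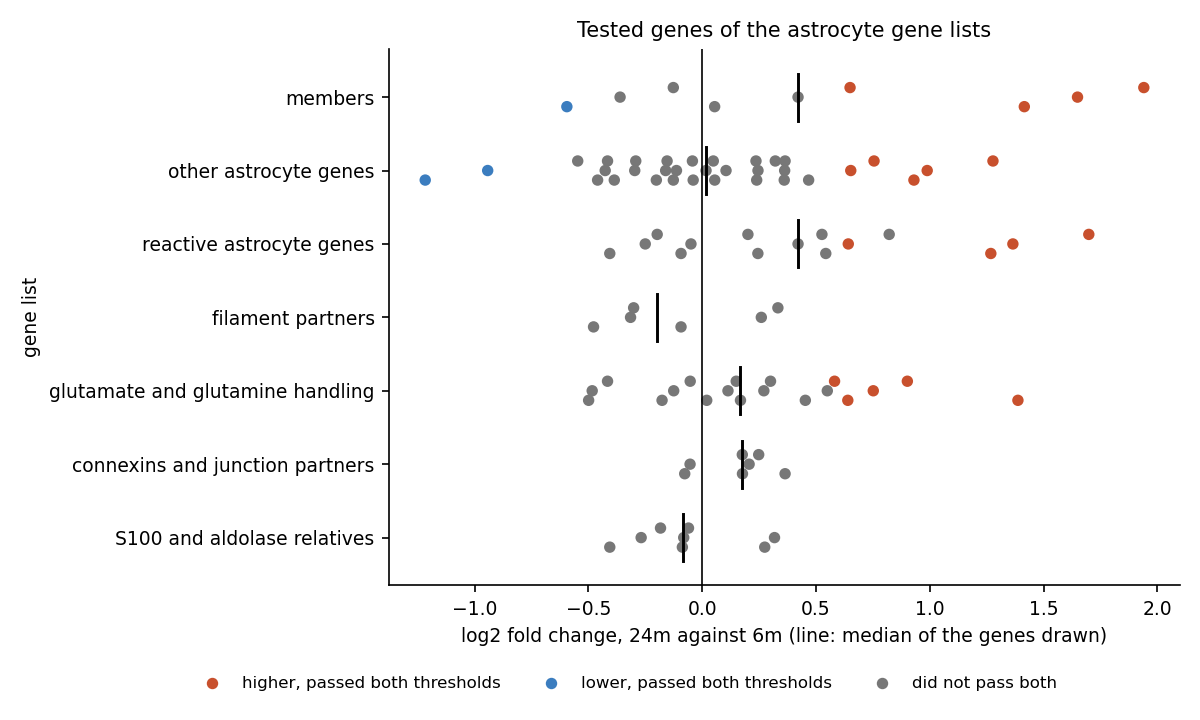
Log2 fold change at 24m against 6m (horizontal axis) of the tested genes in 7 lists (rows), coloured by call, with a line at the median of the genes drawn. Kcnj10 is not drawn because it had 1 count at 6m. Calls in both directions appear among the 9 members and the other astrocyte genes, and no call appears among filament partners, connexins, or S100 and aldolase relatives.

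Markers of other cell types also differed between the ages, and their part in the results above was not tested. Summed CPM were higher in every aged library for 12 microglia markers (876 to 931 at 6m and 1087 to 1370 at 24m, with 3 of 10 tested genes higher), 8 oligodendrocyte markers (2070 to 2633 and 2873 to 3726, with 2 of 8 higher) and 10 neuron markers (3031 to 3243 and 3723 to 3996, with 3 of 10 higher). Over all tested genes, 10.3% were called higher and 4.17% lower. All 5 blood markers were lower at 24m, with summed CPM of 6090 to 10032 at 6m and 3350 to 6283 at 24m. None of the tested endothelial and mural (6 of 10), ependymal and choroid plexus (6 of 7), fibroblast (2 of 5) or oligodendrocyte progenitor markers (1 of 4) passed both thresholds, and the summed CPM of each of these lists overlapped between the ages. No marker in these lists was at 0 in all 8 libraries.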

How the data were processed

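The authors deposited raw counts for each gene. They obtained them from ONT reads of 8 brain hemispheres by mapping to GRCm39 with minimap2 (2.24 in the submitters' processing notes) and counting with featureCounts on an Ensembl annotation. The labels describe a poly(A) cDNA kit and the methods direct RNA sequencing, and the methods were followed. The labels number the animals 1 to 4 within each age, and each library is a separate mouse. Identifiers were matched to GENCODE vM39 (22281 of 22430 genes), which gave symbols, positions, strands, sequences and transcript lengths.

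The test was edgeR 4.0.16's quasi-likelihood test (R 4.3.3, TMM scaling, no covariate) on genes whose mean count exceeded 5. To be called changed, a gene needed an adjusted p ≤ 0.05 together with |log2FC| ≥ 0.58. Ratios used a pseudocount of 0.5 for the test and none for the printed values per library. Intervals are at 95%. The alternatives used DESeq2 1.42.0, limma 3.58.1, other scaling factors and filters, an adjusted p alone, a replicate block and leaving out each library. The fits were tested on simulated data.

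The members, lists and ratios were chosen with earlier results of these data known. Named were all members and, from each other list, up to 4 called genes by absolute log2FC and up to 3 more by mean count, and the 5 genes nearest to Gfap.

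A sequence comparison of the filament genes is not reported here.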

Additional observations from a re-analysis of the deposited data

Results flagged for a closer look

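In 16 of the 190 sets of 4 libraries of an age that were examined, the highest or lowest library lay far from the other 3, and chance gives about 1 in 20. Of these, 8 were aged replicate 1. It had 0.86 counts of Slc1a2 per count of Slc1a3 (0.41 to 0.44 in the other aged libraries). Its Gjb6 stood at 36.6 CPM (65.2 to 69.1) and its Snap25, a synaptic gene, at 261 CPM (600.2 to 667). It was high in Cst3 at 5698 CPM (4624 to 4654), Aldoa at 4370 CPM (3780 to 3836), Mt3 at 3056 CPM (2243 to 2355), Tubb3, a neuronal tubulin, at 974 CPM (671 to 714) and H2-D1 at 163 CPM (120 to 127). Aged replicate 3 had 0.148 counts of Gfap per count of Aldoc (0.0932 to 0.102) and a sum of endothelial and mural markers of 288 CPM (226 to 236). Aged replicate 4 had C4b at 120 CPM (145 to 148). Among young adult libraries, replicate 4 had H2-D1 at 71.6 CPM (88.6 to 91.1) and Serpina3n at 26.4 CPM (7.39 to 9.96). Young adult replicate 1 had Stat3 at 4.92 CPM (7.23 to 7.53) and the only count of Kcnj10 at that age, 1.23 CPM. Young adult replicate 2 had the lowest library total, 573152 counts (818963 to 843706).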

How the results depend on the processing

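Gfap, Slc1a3, Glul and Gja1 were called higher under all 20 alternatives, with log2FC of 1.79 to 2.08, 1.53 to 1.82, 0.58 to 0.76 and 1.26 to 1.63. Vim (0.34 to 0.53), Aldh1l1 (-0.42 to -0.23), Aldoc (-0.23 to 0.11) and S100b (-0.01 to 0.21) were called under none of them. The call of Slc1a2, and with it the count of 1 lower member, became 0 with DESeq2 on raw or quantile-normalized counts, filterByExpr, library sizes alone, no filter and a total count over 5, and ranged from 0 to 1 without single libraries (0 without young adult replicate 4, aged replicate 3 or aged replicate 4). In most of these the log2FC fell short of the threshold of 0.58. The 968 higher and 391 lower genes of the whole table became 629 and 205 with DESeq2 on raw counts and 547 higher with DESeq2 on quantile-normalized counts, and the lower genes numbered 223 with library sizes alone, which moved the median log2FC of all genes to 0.10, and 883 with the adjusted p alone. Of the other astrocyte genes, 3 were higher and 1 lower with DESeq2 on quantile-normalized counts. There was 1 lower with DESeq2 on raw counts or filterByExpr and 6 with the adjusted p alone, and leaving out single libraries gave 3 to 6 higher (3 without aged replicate 2) and 1 to 2 lower (1 without aged replicate 3, aged replicate 4, young adult replicate 3 or young adult replicate 4). Among the ratios, Gja1 to Aldoc had p = 0.057 (exact permutation test) whichever young adult library was left out, with log2 differences of 1.26 to 1.81 over the 8 omissions. The other 4 ratios that passed kept p = 0.029 (exact permutation test) whichever library was left out. With a replicate block, an exact sign-flip test gave p = 0.125 for each of them, the lowest value that test allows here. For all 4 of these ratios, the levels of the genes had already fixed that the ages would separate.

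A replicate block on the animal numbers kept 4 members higher and 1 lower, among 940 higher and 368 lower genes. Animals with the same number did not deviate together (correlations -0.16 to 0.06), so the numbers were not taken as pairs. Depth limits Gja1, Slc1a3, Slc1a2 and the 23 reactive astrocyte genes that could not be tested.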
